A study of Rattus norvegicus with 98 samples.

Results

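A set of 76 windows of 1 kb carried the active chromatin mark H3K27ac in the rat septum and in few other brain regions. A window on chromosomes 1 to 20 of the Rn5 genome counted as occupied in a library when the peaks of that library covered 500 bp or more of it. Windows were kept when at least 6 of the 8 libraries of lateral septum (LS) and medial septum (MS) occupied them, and at most 10% of the 84 libraries from other regions, which is 8 libraries. The 76 windows are 0.182% of the 41730 windows occupied in 6 or more septum libraries, and 284178 windows were occupied in at least 1 of the 92 libraries considered. The windows were chosen by their occupancy in these same libraries, so their presence in the septum and their scarcity elsewhere are a description and not a finding.

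The lists come from male Long-Evans rats, 2 months old, that drank plain water (Sham) or, for 6 weeks, water with fluoxetine, a serotonin reuptake inhibitor, at a daily dose of 18 mg per kg (FT). Frozen brain was micropunched, punches of several animals were pooled for each replicate, and H3K27ac was mapped by sequencing immunoprecipitated chromatin (ChIP-seq). Lists of 94 libraries were analysed, 47 Sham and 47 FT, from 25 regions, and both libraries of the habenula (HB) were left out of the choice of windows. LS and MS each had 2 Sham and 2 FT libraries, and both regions of a replicate were punched from the brains of 1 pool, so a replicate is a pool and not an animal. A punch mixes neurons, glia and vessels, so fewer cells that carry a mark and less of the mark per cell cannot be told apart.

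The septum lies between the lateral ventricles at the midline of the forebrain. The lateral septum consists mostly of GABAergic projection neurons that receive hippocampal input and project to the hypothalamus and midbrain, and it is known for its part in social, aggressive and anxiety-related behaviour. The medial septum holds cholinergic, GABAergic and glutamatergic neurons that project to the hippocampus and pace its theta rhythm. H3K27ac is the acetylation of a lysine in the tail of histone H3 and marks active promoters and enhancers, and enhancers carry much of the difference between cell types. The lists name no genes, and genes or bases of the Rn5 build were not used here, so windows are given by position alone.

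Most of the 76 windows were occupied in LS and in MS of treated rats, and fewer in the MS lists of untreated rats. In LS, 74 of the 76 windows were occupied in Sham replicate 1, 57 in Sham replicate 2, and 76 in each FT replicate. In MS, 74 and 75 windows were occupied in FT replicates 1 and 2, but only 17 and 24 in Sham replicates 1 and 2. The Sham MS counts lie below all 6 other septum libraries, and the Sham MS list with 17 windows lies below the Sham library of arc (arcuate nucleus), which had 22. The other libraries had medians of 1 window in Sham and 4 in FT, so both Sham MS lists still lay above most of them. Library by library, most of the set was held by LS and FT MS, and the name septum is used below only as the rule gives it.

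**Figure D1:**
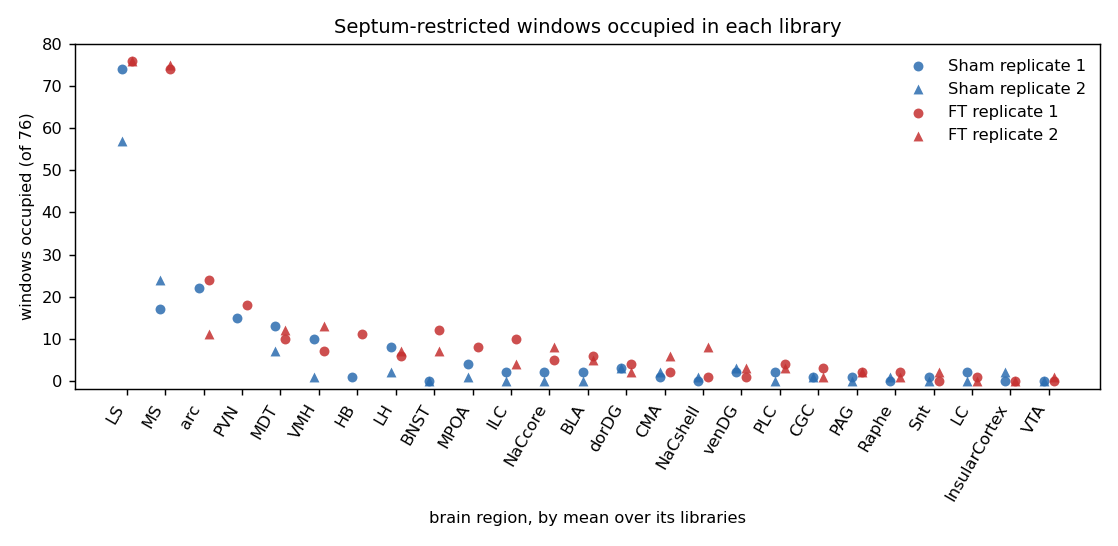
Number of the 76 septum-restricted windows occupied in each of the 94 libraries (vertical axis), by brain region (horizontal axis, ordered by the mean over libraries). Blue points are Sham and red points FT, circles replicate 1 and triangles replicate 2. LS and FT MS hold 57 to 76 windows, Sham MS holds 17 and 24, and no other library exceeds 24.

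The Sham MS lists were also short, and list length moved with the count. They held 27508 and 27292 peaks, against 47277 and 46325 in FT MS, 43341 and 26223 in Sham LS, and 46319 and 46482 in FT LS. The depth of the libraries is unknown, so a shorter list cannot be told apart from a shallower or less enriched library. The shortest of the 8 lists was that of Sham LS replicate 2, with 57 windows occupied. Counting any overlap of 1 bp or more raised Sham MS to 24 and 30 windows. With every library reduced to its 19378 best peaks by tag count, the length of the shortest list, LS held 20 and 32 windows in Sham and 28 and 24 in FT, and MS held 6 and 6 in Sham and 14 and 17 in FT. At equal length both Sham MS lists were the lowest of the 8, and FT MS lay below all 4 LS lists. Each reduced list is a part of a full list that chose the windows. Sham MS could thus not exceed its full-list counts of 17 and 24, so this order is no test of list length.

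The occupancy of the 76 windows in each septum library is part of what chose them, so the shares that follow describe the set and support nothing. All 41730 windows of 6 or more septum libraries were occupied to 84.9% and 76.5% in the Sham MS lists, against 22.4% and 31.6% of the 76. In Sham LS replicate 2 the shares were alike, 75.2% of all windows and 75% of the 76. Since most septal windows have stronger peaks than these 76, the shares were also read over the 8005 windows whose mean score percentile (defined below) was under 50, where Sham MS occupied 62.8% and 53.5% and Sham LS replicate 2 occupied 51.4%. Of the 63 septum-restricted windows under the same level, Sham MS occupied 23.8% and 28.6% and Sham LS replicate 2 occupied 76.2%.

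**Figure D2:**
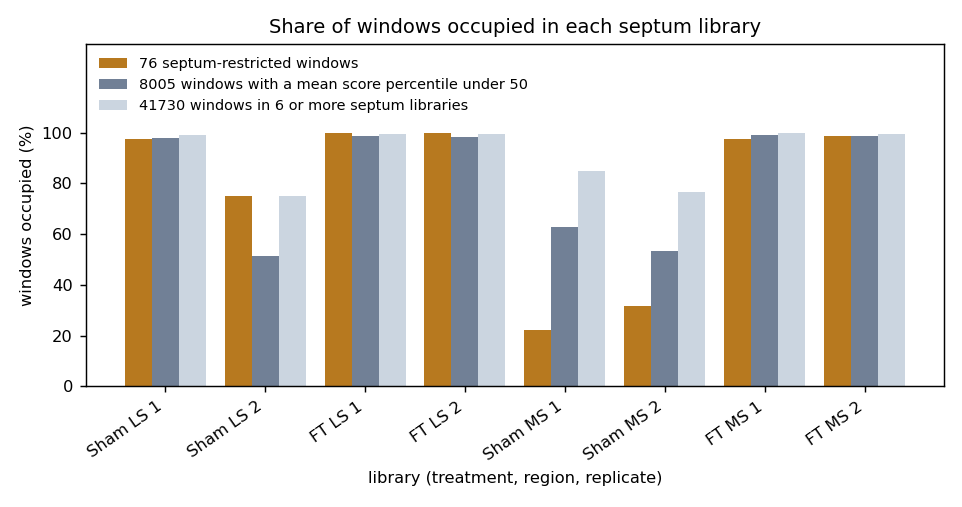
Percentage of windows occupied in each septum library (vertical axis, from 0), for the 76 septum-restricted windows, the 8005 windows of 6 or more septum libraries with a mean score percentile under 50, and all 41730 windows of 6 or more septum libraries. In Sham MS the 76 windows stand at 22.4% and 31.6%, below both other sets, and in Sham LS 2 they stand at 75%, above the 8005 windows at 51.4%.

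The pattern by treatment within MS is described by the number of windows occupied in both lists of a treatment and in neither list of the other. Of the 76 windows, 41 (53.9%) were in both FT MS and in neither Sham MS list, against 6.29% of all windows of 6 or more septum libraries, and 0 were in both Sham and neither FT list, against 0.012%. Among windows with a mean score percentile under 50 the count was 35 of 63 (55.6%), against 15.7% of 8005. In LS the same pattern was held by 1 window (1.32%), against 0.321% of all windows, and under a percentile of 50 by 1 of 63 (1.59%), against 0.874%. The rule itself allows at most 2 missing septum lists, so a window missing from both Sham MS lists had to be in the 6 others. For that reason the windows of exactly 6 septum lists were read alone: 41 of 62 (66.1%) were the ones lacking both Sham MS lists, against 28.6% of 9163 such windows. In the same class, 10 of the 62 lacked Sham LS replicate 2 and Sham MS replicate 1, against 24% of 9163, and 6 lacked Sham LS replicate 2 and Sham MS replicate 2, against 38.5%. An exact two-sided permutation test of 2 lists against 2 cannot go below p = 0.333, and the rule used these lists, so no test was made of these counts. The part of list length in them was not tested, and the equal-length reading above cannot settle it.

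A further 29 windows were in 1 Sham MS list and 6 were in both. All 4 FT septum lists held 73 windows (96.1%), against 98.4% of all windows, and all 4 Sham septum lists held 3 (3.95%), against 56.4%. All 4 LS lists held 56 windows (73.7%, against 74.1% of all), and all 4 MS lists held 5 (6.58%, against 67.3%). By number of septum libraries, 62 windows were in 6, 11 in 7 and 3 in 8.

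The peaks on the 76 windows were mostly weak. DFilter, the peak caller, gives each peak a highest filter score, which was ranked here within its own list, so that a percentile of 50 is the middle peak of that library. The median percentile of the septum-restricted windows was 40.7 and 24.9 in Sham LS, 49.0 and 52.0 in FT LS, 21.3 and 22.5 in Sham MS, and 34.4 and 37.2 in FT MS, over the windows each library occupied. Over all windows of 6 or more septum libraries the medians ran from 66.7 to 77.8. Averaged over the septum libraries that occupied it, the percentile of a window was 36.1 in the median and ranged from 16.3 to 85.9. Of the 76, 63 windows (82.9%) were under 50, against 19.2% of all windows. In 63 windows the mean peak was thus in the lower part of its list.

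The deposited normalised tag count, a whole number that scales with the reads in a peak, showed the same. Its median on the windows was 4 in Sham LS replicate 1, 3 in Sham LS replicate 2, 5 and 4 in FT LS, 3 in both Sham MS lists, and 4 and 3 in FT MS, while all windows had medians of 4 to 7. The highest tag count on any of the 76 windows was 23, in FT MS replicate 1. The median width of the peaks on a window was 1600 bp in the median, with a range of 750 to 2800 bp.

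**Figure D3:**
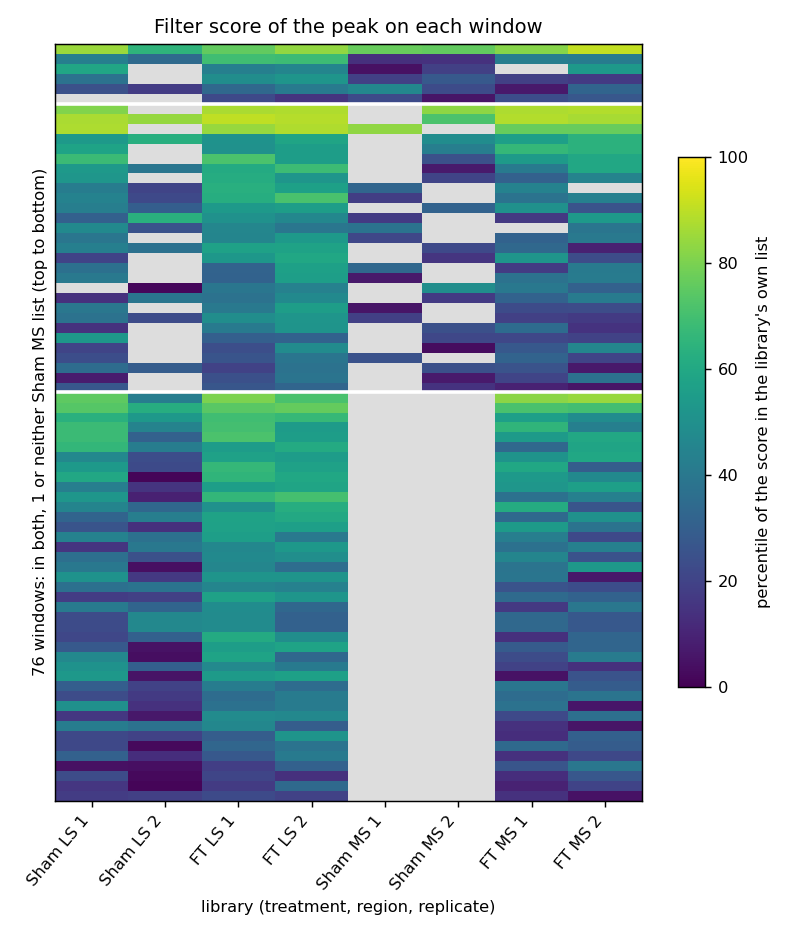
Percentile of the highest filter score within its own list for the peak on each of the 76 windows (rows) in each of the 8 septum libraries (columns), from 0 (dark) to 100 (yellow), with grey where the window was not occupied. White lines divide windows in both Sham MS lists (6, top), in 1 (29) and in neither (41, bottom), and the 4 windows with a mean percentile over 75 lie in the upper 2 blocks.

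Only 3 windows were occupied in all 8 septum libraries. The window chr1:49314001-49315000 was the strongest of these, with tag counts of 15 and 8 in Sham LS, 20 and 16 in FT LS, 10 and 10 in Sham MS, and 23 and 19 in FT MS. It was at the edge of the rule, with 8 other libraries (LH, MDT, PVN and VMH), it lay 1 kb from a window that over 50% of the other libraries occupied, and its median peak width was 2800 bp. FT exceeded Sham in both regions at this window without overlap in the deposited counts, but the libraries differ in scale, and after normalisation the fitted difference (described below) did not pass the test.

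The window chr5:175193001-175194000 was weaker and was occupied in 4 other libraries, from arc and the dentate gyrus. Its tag counts were 4 and 4 in Sham LS, 6 and 6 in FT LS, 3 and 3 in Sham MS, and 5 and 4 in FT MS. On the percentile scale it stood at 43.2 and 34.7 in Sham LS, 69.2 and 68.5 in FT LS, 13.7 and 14.1 in Sham MS, and 42.4 and 41.9 in FT MS. On this scale LS was above MS within each treatment, and FT was above Sham within each region. The Sham lists were shorter than the FT lists, and a percentile depends on the length of its list. After quantile normalisation of the tag counts, the fit described below gave FT minus Sham as 0.06 ± 0.09 (SE, adjusted p = 0.712, limma).

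The window chr13:94536001-94537000 had tag counts of only 3 or 4 in all 8 libraries, and 6 other libraries occupied it. Its percentiles were 25 and 17.6 in Sham LS, 33.8 and 40.8 in FT LS, 46.2 and 22.8 in Sham MS, and 7 and 32.3 in FT MS. FT LS lay above both Sham LS and FT MS, and the Sham lists of the 2 regions overlap, as do the MS lists of the 2 treatments.

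In all, 4 windows had a mean percentile over 75, and chr1:49314001-49315000 is described above. Like it, the others each lay 1 kb from a window that all 8 septum libraries and 78 to 83 of the 84 other libraries occupied, and their peaks were 2350 to 2650 bp wide in the median, so the percentiles belong to broad peaks that reach into the window from a widely occupied neighbour. The highest was chr9:97878001-97879000 at 85.9, with tag counts of 7 in Sham LS replicate 1, 10 and 8 in FT LS, 5 in Sham MS replicate 2, and 10 and 8 in FT MS, and under 500 bp covered in the other Sham lists. At chr10:95628001-95629000 the mean percentile was 85.4, with tag counts of 7 and 5 in Sham LS, 11 and 8 in FT LS, 4 in Sham MS replicate 2, and 9 and 8 in FT MS. Other than the window on chromosome 1, each of these 4 fell short of 500 bp in 1 Sham MS list, where peaks still covered 294 to 499 bp of it.

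The 76 windows were scattered over the genome. They lay on 17 of the 20 chromosomes, with 14 on chromosome 1, 8 on chromosome 5 and none on chromosomes 11, 16 and 19. Touching windows were joined into 73 loci, 3 of which had 2 windows, and loci less than 50 kb apart into 71 clusters, 5 of which had 2 windows. The clusters were chr4:151647001-151649000, chr5:175167001-175194000, chr5:175410001-175444000, chr1:135816001-135818000 and chr6:144558001-144560000. Of these, the clusters on chromosomes 4, 1 and 6 each rest on a single peak that spans both windows in most libraries, so their windows are not separate observations. At chr4:151647001-151649000 the percentile in the left window was 37.7 and 22.9 in Sham LS, 49.0 and 52.0 in FT LS, 18.8 in Sham MS replicate 1, and 18.8 and 16.9 in FT MS. The right window was not occupied in Sham LS replicate 2 and stood at 28.0 in Sham MS replicate 2, above the 22.9 of Sham LS replicate 2 in the left window, so Sham LS and Sham MS overlap at this peak while FT LS lay above FT MS.

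The densest stretch was on chromosome 5, where 7 of its 8 windows lay within 1.86 Mb, at chr5:173583001-175444000. They are 17.1% of the 41 windows of 6 or more septum libraries in that stretch, against 0.182% over all chromosomes, and no stretch of this length on another chromosome held more than 3. The stretch was chosen after its values were seen and has no test. All 4 LS lists and both FT MS lists occupied all 7 windows, while Sham MS replicates 1 and 2 occupied 2 and 1 of them, and 0 to 6 other libraries occupied each.

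This stretch held 2 of the clusters, which together spanned 277 kb. In chr5:175167001-175168000, the left window of the first, tag counts were 3 and 3 in Sham LS, 5 and 4 in FT LS and 4 and 3 in FT MS, with neither Sham MS list and 0 other libraries. It was 1 of only 4 windows that no other library occupied. In chr5:175410001-175411000, the left window of the second, tag counts were 9 and 6 in Sham LS, 10 and 8 in FT LS, 4 in Sham MS replicate 1, and 8 and 7 in FT MS. In chr5:175443001-175444000, its right window, tag counts were 5 and 4 in Sham LS, 7 and 5 in FT LS, and 4 and 4 in FT MS. In both windows of the second cluster the counts of FT MS lay below those of FT LS of the same replicate.

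The windows lay at varied distances from broadly occupied chromatin. The nearest window occupied in over 50% of the other libraries was 18 kb away in the median, with a range of 1 to 315 kb. Of the 76 windows, 22.4% were within 5 kb of such a window, against 50% of the 3196 windows of 6 or more septum libraries that 50% or less of the other libraries occupied, and 69.7% against 87.5% were within 50 kb. For 55 of the 76, neither neighbouring window was occupied in 6 or more septum libraries. The peak centres of a window spread over 483 bp between septum libraries in the median (126 to 2365 bp), and 53.9% of windows kept this spread to 500 bp or less, against 79.1% of all windows. The libraries therefore did not always place the peak at the same point.

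Outside the septum, the windows were held most often by the lists of some hypothalamic and midline thalamic regions. These regions were singled out by their counts, which the rule had bounded. Over the 84 other libraries there were 337 occupations, and a window had 4 in the median, 0 in 4 windows and the limit of 8 in 13 windows. The 17 libraries of arc, PVN (paraventricular nucleus of the thalamus in the study's list of regions), MDT (dorsomedial thalamus), VMH (ventromedial hypothalamus) and LH (lateral hypothalamus) had 186 of these (55.2%) and touched 63 windows, and the remaining 67 libraries had 151. The arc lists held 22 windows in Sham and 24 and 11 in FT, the PVN lists 15 in Sham and 18 in FT, and the MDT lists 13 and 7 in Sham and 10 and 12 in FT. In VMH the counts were 10 and 1 in Sham and 7 and 13 in FT, and in LH they were 8 and 2 in Sham and 6 and 7 in FT. MPOA (medial preoptic area) held 4 and 1 in Sham and 8 in FT. Of all 41730 windows of 6 or more septum libraries, each of the 17 libraries occupied 75.4% to 96.95%, and each of the 67 others 31.8% to 96.1%. There were 3 libraries of arc and 2 of PVN, against 4 of most regions, so the limit of 8 was looser for windows shared with them. The peaks on the windows in all other libraries had a median score percentile of 30, so they were weak there as well.

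BNST (bed nucleus of the stria terminalis), which borders the septum and receives part of its output, held 0 and 0 windows in Sham and 12 and 7 in FT. The Sham lists of BNST were shorter, with 38333 and 26942 peaks against 48814 and 46580, and occupied 89.1% and 71.0% of all 41730 septal windows, against 96.1% and 94.5% in FT. Peaks also covered under 500 bp of 10 and 6 of the windows in Sham BNST, and of 13 and 16 in FT. The nucleus accumbens, a ventral neighbour of the septum, held 0 and 1 in Sham and 1 and 8 in FT in its shell, and 2 and 0 in Sham and 5 and 8 in FT in its core. Of all 41730 septal windows, the shell lists occupied 72.1% and 64.7% in Sham and 54.1% and 90.4% in FT. The core lists occupied 68.5% and 81.3% in Sham and 92.6% and 92.3% in FT. Over the other regions together, counts were higher in the FT lists. The 42 other FT libraries had 222 occupations, with 0, 4 and 24 windows as the lowest, median and highest, and the 42 other Sham libraries had 115, with 0, 1 and 22. The groups overlap, and the FT lists were longer, with a median of 48545.5 peaks against 40176.5 in Sham. Of all 41730 septal windows, a library occupied 31.8% to 96.95% in the other Sham lists and 54.1% to 96.4% in the other FT lists. The part of list length in this difference was not tested.

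At the edge of the rule, 13 windows were occupied in 8 other libraries and 17 windows would have entered with 1 library more. Just inside were chr1:49314001-49315000, chr1:135817001-135818000 and chr1:212016001-212017000, each with 8 other libraries, and just outside was chr6:111187001-111188000, with 7 septum libraries and 9 others. With the limit on other libraries kept, 249 further windows had 5 septum libraries and 575 had 4. The number of windows moved with the limit on other libraries, to 40 at 5% and 149 at 15%.

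The septum gave fewer restricted windows than 3 other pairs of neighbouring regions under the same rule. The nucleus accumbens (shell and core) gave 558 windows, 1.63% of the 34318 windows in 6 or more of its libraries, the amygdala (BLA and CMA) 282, 0.542% of 52081, and the dentate gyrus (dorsal and ventral) 3485, 6.32% of 55112. All 8 target libraries occupied 3.95% of the septum windows, 9.86% of the accumbens windows, 3.19% of the amygdala windows and 27.3% of the dentate gyrus windows. The target library that held the fewest was a Sham library in each case: 22.4% in Sham MS replicate 1, 39.3% in Sham NaCshell replicate 2, 28.4% in Sham BLA replicate 2 and 52.1% in Sham venDG replicate 1. These lists had 27508, 27694, 31893 and 43874 peaks. The lists of their pairs had 26223 to 47277, 24429 to 49521, 31893 to 53716 and 34769 to 51458. Occupancy in the target libraries chose the windows, so these shares describe the sets. With 4 pairs of regions these figures stand side by side with no test.

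A reading that the choice did not use came from splitting the replicates. The rule was applied to the libraries of 1 replicate number, and the chosen windows were counted in the libraries of the other number, which came from other pools. The libraries of replicate 1 chose 430 windows. In replicate 2, FT LS occupied 77.2% of them, FT MS 52.8%, Sham LS 18.4% and Sham MS 7.21%, while the 40 other libraries occupied 0 to 18.8%, with a median of 3.49%. The FT septum lists thus lay above all other lists, Sham LS lay within their upper end, and Sham MS lay inside their range.

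The libraries of replicate 2 chose 290 windows. In replicate 1, FT LS occupied 79.0%, Sham LS 65.5%, FT MS 64.5% and Sham MS 10.3%, while the 44 other libraries occupied 1.03 to 44.8%, with a median of 8.28%. The highest other lists were FT arc at 44.8%, Sham arc at 43.5%, FT PVN at 43.1% and Sham PVN at 34.5%. Replicate 2 had 1 library of arc and none of PVN to choose with, so the limit on other regions was looser there for these nuclei. In both directions LS and MS of treated rats kept more than 50% of the windows, and Sham MS lay within the range of the lists from other regions.

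**Figure D4:**
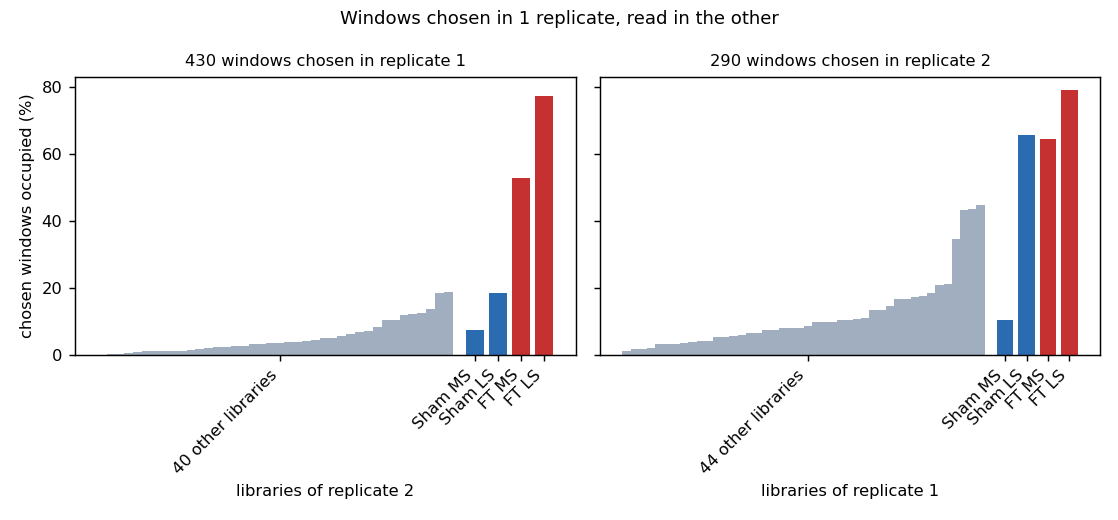
Percentage of the windows chosen in 1 replicate (430 in replicate 1, left, and 290 in replicate 2, right) that each library of the other replicate occupied. Grey bars are the other regions in rising order, blue bars Sham and red bars FT septum libraries, and FT LS and FT MS stand above every grey bar in both panels.

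Acetylation level was compared between LS and MS on the tag counts, taken as log2(tag count + 1), quantile normalised, with limma over all 41730 windows of 6 or more septum libraries and treatment as a covariate. The adjusted p is Benjamini-Hochberg over all windows, with 0.05 as the threshold. A library that did not occupy a window was missing there. For the 41 windows that lacked both Sham MS lists, the fitted difference is therefore FT LS against FT MS alone. Sham LS enters only the variance at these windows. Of the 76 windows, 5 (6.58%) passed and all 5 were higher in LS, the region through which most windows met the rule, against 2.53% of all windows, 1.3% higher in LS and 1.23% higher in MS. At an unadjusted p under 0.05 there were 15 (19.7%), against 15.1% of all windows.

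The differences were small and the calls fragile. The window chr2:269061001-269062000 had tag counts of 4 and 3 in Sham LS, 6 and 5 in FT LS, and 4 and 3 in FT MS, and its log2 difference was 0.44 ± 0.02 (SE, adjusted p = 0.0134, limma). At chr5:175347001-175348000 the counts were 5 and 4 in Sham LS, 7 and 6 in FT LS, and 5 and 4 in FT MS, with a difference of 0.40 ± 0.05 (SE, adjusted p = 0.0457, limma). The windows chr3:43359001-43360000, chr5:173583001-173584000 and chr14:32710001-32711000 had identical counts, 4 and 3 in Sham LS, 5 and 4 in FT LS, and 4 and 3 in FT MS, and so an identical difference of 0.19 ± 0.02 (SE, adjusted p = 0.0393, limma). All 5 lacked both Sham MS lists, and within FT the LS count of a replicate exceeded that of MS by 1 or 2 tag counts. Tag counts are whole numbers, so these small SEs rest on few distinct values. LS and MS of a pool share animals, and with the pool as a block 0 of the 76 windows and 0 of 41730 (0.0%) passed in limma, with 17 and 6011 at an unadjusted p under 0.05 and a lowest adjusted p of 0.165 among the 76.

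Over all 76 windows the LS minus MS difference ran from -0.22 to 0.44 on the log2 scale, with a median of 0.09 against 0.00 for all windows, and 56 windows were above 0. Per kb of peak width this turned, with 27 of 76 above 0 and a median of -0.08, so no direction of tag density is given. The lowest values did not pass: chr20:25171001-25172000 at -0.22 ± 0.12 and chr1:49314001-49315000 at -0.12 ± 0.04 (SE).

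Within treated rats, where the 4 septum lists were of similar length (46319 to 47277 peaks), the score percentile was compared over windows with no list missing. Of the 73 windows in all 4 FT septum lists, 36 (49.3%) were higher in both LS lists than in both MS lists, against 23.7% of 41083 windows, and 3 (4.11%) were lower, against 28.4%. Under a mean percentile of 50, 32 of 60 windows (53.3%) were higher in LS, against 19.5% of 7652, and 1 (1.67%) was lower, against 26.6%. Most of the windows met the rule through LS, since 56 were in all 4 LS lists and 5 in all 4 MS lists, so these counts describe the choice and are no independent sign of a difference between LS and MS.

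Whether fluoxetine moved the level within septal lists was tested in limma with region as a covariate and the pool as a random block, over the same windows. The pool correlation estimated for the block was -0.0478, so LS and MS of a pool counted almost as independent libraries. With LS and MS averaged per pool, 0 of 23383 windows passed, and only 3 of the 76 were among those. For the 41 windows that lacked both Sham MS lists, the fitted difference is FT LS against Sham LS alone. At these windows it says nothing of fluoxetine in MS. Of the 76, 1 window (1.32%) passed and was higher in FT, against 2.92% of all windows, 2.27% higher and 0.642% lower, and 7 (9.21%) had an unadjusted p under 0.05, against 18.9%. The window was chr2:269061001-269062000 again, at 0.25 ± 0.02 (SE, adjusted p = 0.025, limma), with no Sham MS value and the counts given above. With the replicate number as a further term it did not pass, when 1.99% of all windows did. The differences of the 76 ran from -0.30 to 0.47 with a median of 0.00, against 0.05 for all windows, and 35 were above 0. This number depended on the scaling, with 17 above 0 under median centring, 14 per kb of peak width and 49 on the filter score, so no direction is given for the set.

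No other window came under the threshold. In the direction of FT, chr9:97878001-97879000 stood at 0.10 ± 0.02, chr1:49314001-49315000 at 0.12 ± 0.04, chr6:153951001-153952000 at 0.14 ± 0.04 and chr10:95628001-95629000 at 0.23 ± 0.07 (SE), with adjusted p from 0.0983 to 0.208 in limma. In the direction of Sham, chr13:94536001-94537000 stood at -0.19 ± 0.06 and chr15:29436001-29437000 at -0.24 ± 0.11 (SE), with adjusted p of 0.227 and 0.343 in limma. These values cover only lists that occupied a window, so the large gap in occupancy between Sham and FT MS does not enter them. At chr6:153951001-153952000 and chr15:29436001-29437000 each region had only 1 Sham list. The first turned to -0.17 on the filter score, and the second to 0.20 with missing values at the lowest value.

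**Figure D5:**
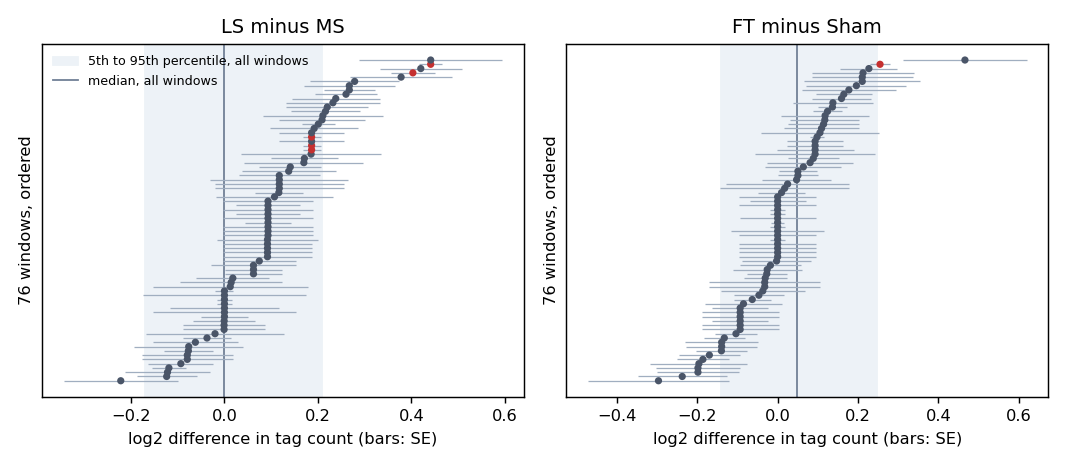
Fitted log2 difference in tag count for each of the 76 windows, LS minus MS (left) and FT minus Sham (right), each panel ordered by its own values, with bars of 1 SE. Red points passed an adjusted p of 0.05 (5 left, 1 right), the shaded band is the 5th to 95th percentile of all 41730 windows, and the line is their median (0.00 and 0.05).

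Whether the effect of fluoxetine differed between LS and MS could be fitted for 24 of the 76 windows, with the pool as a fixed block. In limma 0 of these and 0 of 36689 windows (0.0%) passed, and 4 (16.7%) and 5414 (14.8%) had an unadjusted p under 0.05. At chr9:109331001-109332000 the FT effect in LS exceeded that in MS by 0.42, and at chr5:175410001-175411000 it differed by -0.46. Each of these rests on 1 Sham MS list, so its size alone is given, and neither passed the test. The 52 remaining windows lacked Sham values this contrast needs, mostly those of MS.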

How the data were processed

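H3K27ac peak lists of 94 micropunched rat brain libraries were analysed, 1 list per library, with 19378 to 54505 peaks outside HB. Each replicate is a pool of animals. The authors aligned reads to Rn5 and ran the peak caller DFilter per library, without pooling lists. The submitters' processing notes name BWA without a version. Each deposited peak has a highest filter score and a normalised tag count, the second a score rounded to whole numbers by the authors, and both depend on the library. The deposited −log10 p-value runs from 4 to 200, and the false discovery rate, deposited as a percent, is 0 for every peak. Read counts were not used here, so depth is unknown and no counting interval was computed.

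File starts count from 0, and printed Rn5 coordinates from 1. Windows, percentiles and counts were computed in Python 3.11.15 (numpy 2.4.6, pandas 2.3.3, matplotlib 3.10.9), and fits in R 4.3.3 with limma 3.58.1, checked on simulated data. In a window touched by several peaks, the peak covering most of it gave the value. The members, gene-free naming rules and comparisons were chosen with earlier results of these data known. Windows named are the clusters and loci with most members, those in all 8 septum lists, those with the lowest p in each direction of each fit, and those at the edge of the rule. Others are marked where they appear. Before averaging, lists were compared, and 0 pairs were identical. Replicate numbers in the labels mark pools, and by the study's methods the regions of a pool share animals, so LS and MS are paired within a pool. The methods also state that Sham and FT samples of the same replicate were processed side by side, so the number also pairs the treatments in processing. The main fit of FT against Sham left this pairing out, and the alternative with the replicate number holds it. The difference between replicates 1 and 2 correlated between LS and MS at 0.0811 in Sham and 0.0604 in FT over 23383 windows. A list of septal genes was not used here, since the reference tables are on another build.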

Additional observations from a re-analysis of the deposited data

Results flagged for a closer look

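Sham LS replicate 2 occupied 57 of the 76 windows, far from 74, 76 and 76 in the other LS lists, and its list was the shortest of the 8 septum lists (26223 peaks). Of the 6 groups of 4 septum libraries checked for such a library, this was the 1 that stood out. The rule chose the windows by these same counts, so the usual rate of about 1 in 20 groups does not apply. The same list occupied 75.2% of all windows of 6 or more septum libraries and 75% of the 76.

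The FT library of HB, which had no part in the choice, occupied 11 of the 76 windows, and the Sham library of HB occupied 1. On chromosome X, which the rule leaves out, 2 of the 1089 windows of 6 or more septum libraries met the same limits. They were chrX:111266001-111267000 and chrX:116299001-116300000, each in 6 septum and 7 other libraries.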

How the results depend on the processing

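The count of windows depended on the limits. It was 39 with peaks of a −log10 p of 6 or more, 120 and 39 with 200 and 800 bp covered, 40 and 149 with limits of 5% and 15% of other libraries, and 3 when all 8 septum libraries were required. It moved by less than 1.5 times with equal-size lists (105), a grid shifted by 500 bp (77) and HB kept (74), but only 14 of the 105 and 36 of the 77 were among the 76. With the Sham MS lists unused, a choice added after seeing the data, it was 273. Leaving out a septum library, with 6 of the remaining 7 required, gave 14 to 66 windows, and the fall is fixed by the rule wherever the library held most of the 76. Leaving out another region gave 77 to 105. Without Sham LS replicates 1 and 2 there were 16 and 32, without either FT LS list 14, and without FT MS replicates 1 and 2 16 and 15. The share kept in the held-out replicate, averaged over 4 septum libraries, was 38.9% when replicate 1 chose and 54.8% when replicate 2 chose.

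The 5 windows called between LS and MS became 0 on the filter score, per kb and with median centring. At most 0.0455% of all windows passed in these settings. The count was 1 with a pseudocount of 10 and with missing values at the lowest value, against 2.35% and 0.0288% of all windows. Over windows in 8 of 8 libraries it was 0, but only 3 of the 76 entered. The 5 called windows lacked both Sham MS lists and could not enter. Leaving out a library gave 0 to 11. Without Sham LS replicates 1 and 2 there were 11 and 8 of the 76, when 2.86% and 3.71% of all windows passed. Without FT LS replicates 1 and 2 there were 0 and 1, against 0.652% and 1.01% of all windows. Without FT MS replicates 1 and 2 there were 0 and 0, against 1.24% and 0.717%. The 1 window called between FT and Sham became 0 on the filter score, per kb and with median centring. With missing values at the lowest value it also became 0. At most 0.0144% of all windows passed in these settings. This window could not enter over windows in 8 of 8 libraries or with pool means, where only 3 of the 76 were fitted and 0 passed. Leaving out a pool leaves 1 pool in a treatment, so calls of those fits are not counted here. For the differing effect of FT between LS and MS, leaving out a library leaves 1 list in a group, so those calls are not counted either. That fit had 0 calls among the 76 under each of the other alternatives. The lowest adjusted p among the 76 in limma ranged over the alternatives from 0.0151 to 0.879 for LS against MS. Over the alternatives that left out no library it ranged from 0.0323 to 0.284 for FT against Sham in limma. For the interaction it ranged there from 0.0506 to 0.715 in limma.

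With the replicate block (the pool for LS against MS, the replicate number for FT against Sham) both counts were 0, and the interaction without its block also had 0. Where a left-out library leaves 1 sample, that sample is assumed to vary like the others. The causes were not tested. Depth is unknown, the tag counts are small whole numbers, and 2 pools per treatment limit every comparison.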

Other observations

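Taking LS alone, in 3 or more of its 4 libraries, with MS counted among the other regions, 822 windows met the same limits, of which 54 are among the 76. Taking MS alone in the same way gave 68 windows, of which 19 are among the 76. These rules were added after seeing the data. Of the 822 LS windows, 775 were in both FT LS lists, 163 in both FT MS lists and 5 in both Sham MS lists. Of the 68 MS windows, 60 were in both FT MS lists and 14 in both Sham MS lists.

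With FT libraries only (3 or more of 4 septum lists, 10% or less of the 42 others), 959 windows met the rule, 58 of them among the 76. With Sham libraries only, 104 did, 16 of them among the 76, and 52 of the 104 were in both Sham MS lists. With the Sham MS lists left unused, 273 windows met the rule, including 74 of the 76.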
